A study of Mus musculus with 24 samples.

Results

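The MITF/TFEB double knockout (DKO) is a B16F10-luc2 line in which Mitf and Tfeb were both inactivated, so that TFE3 was the only member of the family detected in these libraries whose gene had not been edited. It was chosen by its labelled genotype, gave 3 of the 24 libraries, and was compared with the 3 libraries of the unedited parental line over all 12010 genes in the table. B16F10-luc2 is a pigmented mouse melanoma line that carries a firefly luciferase reporter, and all lines were grown in the same serum-containing medium without further treatment. Per the study's methods the DKO was made with CRISPR-Cas9 in an MITF KO line whose Mitf gene carries a frameshift that may still allow a truncated form. Edited cells were isolated as clones, each genotype is 1 cell line here, and the effect of the genotype cannot be told apart from that of the clone. The MITF KO, from which the DKO derives, the TFEB KO and the MITF/TFEB/TFE3 triple KO (TKO), each with 3 libraries, served for further comparisons. These concern the Tfeb and Tfe3 edits, with the same limit of 1 cell line a genotype. Nothing in the sources used here says that the 3 libraries of a line came from separate cultures, so p-values measure the spread between these libraries, which may be technical.

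MITF, TFEB and TFE3 are basic helix-loop-helix leucine zipper factors that bind DNA as dimers at E-box motifs. MITF is the lineage factor of melanocytes and drives genes for pigment synthesis, survival and division, whereas TFEB and TFE3 are widely expressed, are held in the cytoplasm by mTORC1 when nutrients are plentiful, and when released activate genes of lysosomes and autophagy. In nutrient-rich medium, as used here, this restraint is usually in force.

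Each library was made from the 3′ ends of polyadenylated RNA and held 22707913 to 23635288 reads on genes in the parental line and 22765341 to 24749867 in the DKO. Values are CPM, the reads of a gene scaled to a common library size, with trimmed-mean factors applied by the authors. A fold change here is the difference of mean log2(CPM + 1), given with its standard error (SE), which understates the change of genes near 0. "Upregulated" and "downregulated" mean a fold change of at least 2 with an unadjusted p under 0.05, and the p printed is adjusted over all 12010 genes. The summed level of 7 markers of melanocytic cells was 26134 to 26953 CPM in the parental libraries and 17175 to 19640.1 CPM in the DKO libraries. Of 8 leukocyte markers, 1 (Lyz2) was in the table, and its level was 0 to 0.227 CPM in the parental libraries and 1.9997 to 3.90 CPM in the DKO libraries. The 2 endothelial markers in the table of 5 summed to 10.37 to 10.7 CPM in the parental libraries and 0.0796 to 0.706 CPM in the DKO libraries. Markers of fibroblasts, smooth muscle, Schwann cells and keratinocytes were higher in the DKO and are given beside the gene groups they moved with.

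The edited genes were examined first. The guide against Tfeb is shown because it locates the cut: its 20 bases match the mouse genome (GRCm39) once, at chr17:48097370-48097389 on the plus strand, in coding exon 3 of 9 of the canonical Tfeb transcript. The site is printed with its protospacer-adjacent motif in capitals.

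Tfeb guide site: tggacacgtactgtccacctCGG

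The site lies 5959 bases before the 3′ end of the gene, where these reads fall, so neither the Tfeb level nor the Mitf level checks the edits themselves. Tfeb (chr17:48047837-48103348) read 8.197, 7.87 and 10.3 CPM in parental and 3.06, 2.64 and 3.86 CPM in DKO libraries. The groups did not overlap, and Tfeb was downregulated (log2 fold change -1.23 ± 0.18 SE, adjusted p = 4.3e-06). Its mean was 18.3 ± 3.80 CPM (SD, n = 3) for the MITF KO, 2.88 ± 0.809 for the TFEB KO and 3.10 ± 0.296 for the TKO. All means below are given as mean ± SD of 3 libraries. Mitf (chr6:97783950-97998323) read 763, 768 and 797 CPM in parental and 603, 544 and 594 CPM in DKO libraries. Every DKO library lay below every parental one, but the change was under 2-fold (log2 fold change -0.42 ± 0.09 SE, adjusted p = 6.2e-04). The MITF KO stood above both, at 1397 ± 63.3 CPM, and Mitf was lower in the DKO than in the MITF KO (log2 fold change -1.27 ± 0.09 SE, adjusted p = 1.3e-10). Tfe3 (chrX:7628761-7641444), the factor left unedited, read 35.4, 38.4 and 37.4 CPM in parental and 56.3, 62.5 and 50.3 CPM in DKO libraries. It was higher in all 3 DKO libraries (log2 fold change 0.59 ± 0.16 SE, adjusted p = 0.003), short of 2-fold, against 51.7 ± 2.37 CPM in the MITF KO and 19.8 ± 2.09 CPM in the TKO. With a pseudocount of 5 the Tfeb change was -0.75, no longer a call.

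The DKO differed broadly from the parental line. Of 12010 genes, 1054 (8.78%) were upregulated and 593 (4.94%) downregulated, and 1053 and 593 of these also had an adjusted p under 0.05. At any fold, 3459 genes (28.8%) were higher and 3283 (27.3%) lower at an adjusted p under 0.05. The 3 DKO libraries lay above all parental libraries for 3787 genes (31.5%) and below them for 3664 (30.5%). These include 1049 of the 1054 upregulated and all 593 downregulated genes. Separation of the groups, where given below for a called gene, is therefore no further support. The median log2 fold change over all genes was 0.01, and the median SE of a gene was 0.14. Changes of at least 4-fold were more often rises (242 genes) than falls (96 genes). Counts of called members in the gene lists below are to be read against the 8.78% and 4.94% of all genes. Those at an adjusted p under 0.05 are to be read against 28.8% and 27.3%.

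**Figure D1:**
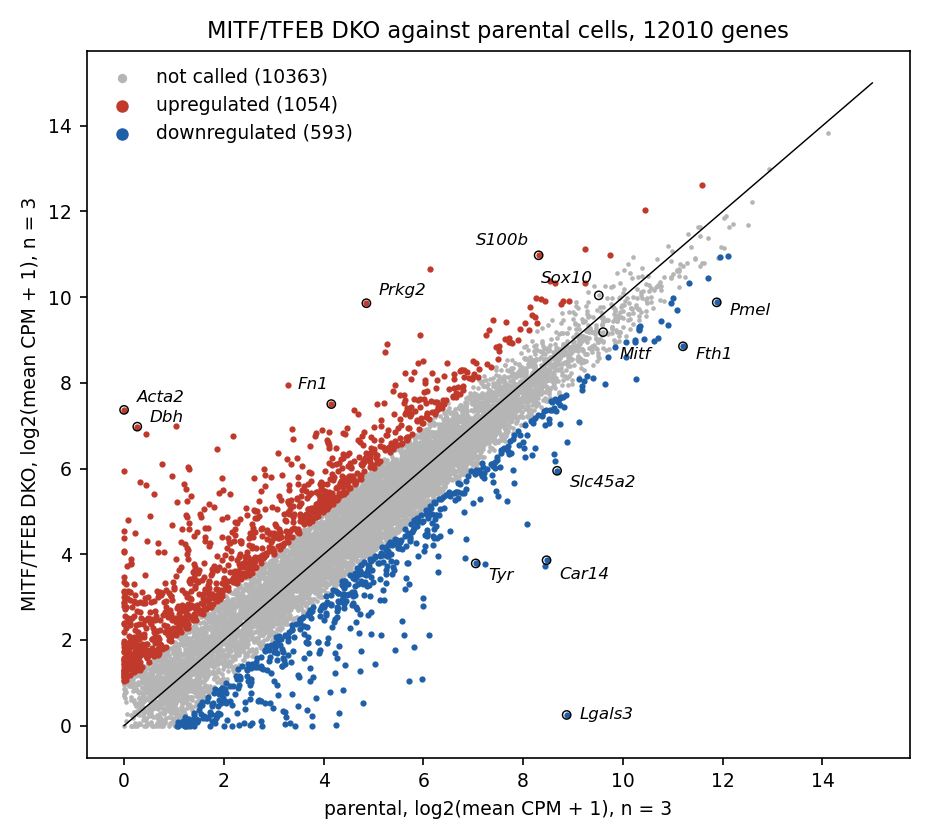
Each point is a gene, with its mean level in the parental line on the horizontal axis and in the MITF/TFEB DKO on the vertical axis, both as log2(mean CPM + 1) of 3 libraries, and the line marks equal levels. The 1054 upregulated genes (red) lie above the line and the 593 downregulated ones (blue) below it, with Acta2 and Dbh at the left edge and Lgals3 at the bottom.

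The largest rises were in genes at or near 0 in the parental line. Acta2, which encodes smooth muscle actin, read 0, 0 and 0 CPM in parental and 205, 159 and 129 CPM in DKO libraries, at least 1231-fold higher when the parental level is set at 3 reads a library. Dbh, the enzyme that turns dopamine into noradrenaline, read 0.604, 0 and 0 CPM in parental and 129, 131 and 116 CPM in DKO libraries. It was the largest rise on the log2 scale among the named genes with reads in the parental line (log2 fold change 6.75 ± 0.18 SE, adjusted p = 1.6e-18). Sorbs2, an adaptor of the actin cytoskeleton, rose from 0.358 ± 0.0980 to 110.4 ± 7.07 CPM (log2 fold change 6.36). Gal3st2, a sulfotransferase, went from 0 in each parental library to 65.5, 59.9 and 55.9 CPM, at least 453-fold. Hsd11b1, which regenerates active glucocorticoid, rose from 0.2503 ± 0.150 to 50.8 ± 4.92 CPM (log2 fold change 5.38). These genes were chosen for large changes without overlap of the parental and DKO libraries, so their separation is no further support. Ifi27l2a, an interferon-inducible gene, rose from 1.06 ± 0.354 to 127 ± 9.90 CPM (log2 fold change 5.96), Cfap100, a cilia gene, from 0.701 ± 0.202 to 67.8 ± 8.09 CPM (log2 fold change 5.34), and Abca8a, a lipid transporter, from 0.353 ± 0.315 to 47.9 ± 1.32 CPM (log2 fold change 5.20). Prkg2, a cGMP-dependent kinase, differed in being well detected in the parental line too, with 27.4, 25.6 and 31.0 CPM in parental and 868, 939 and 975 CPM in DKO libraries (log2 fold change 5.004 ± 0.16 SE, adjusted p = 3.2e-17). Prelp, a matrix proteoglycan, Chst11, a chondroitin sulfotransferase, and Lims2, an adaptor at focal adhesions, complete the 12, with log2 fold changes of 4.98, 4.81 and 4.76.

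The largest fall was that of Lgals3, which encodes galectin-3, a lectin that binds beta-galactosides. It read 466, 475 and 462 CPM in parental and 0.0784, 0.252 and 0.239 CPM in DKO libraries, so the gene was close to silent in all 3 DKO libraries (log2 fold change -8.62 ± 0.11 SE, adjusted p = 4.3e-25). Its mean was 254 ± 19.5 CPM for the MITF KO, 326 ± 25.9 for the TFEB KO and 0.0143 ± 0.0248 for the TKO. Eps8, an actin-capping adaptor of growth factor receptors, read 339, 339.9 and 354 CPM in parental and 14.3, 10.7 and 11.98 CPM in DKO libraries (log2 fold change -4.70 ± 0.12 SE, adjusted p = 1.1e-18). Car14, a membrane carbonic anhydrase, read 364, 368 and 328 CPM in parental and 17.1, 11.6 and 11.9 CPM in DKO libraries (log2 fold change -4.63 ± 0.12 SE, adjusted p = 1.0e-18). Fam111a, a protease that restricts virus replication, fell from 62.1 ± 4.03 to 1.11 ± 0.464 CPM (log2 fold change -4.92). These 4 genes were high in the parental line and in both single KOs and low in the DKO. Fscn1, the actin-bundling protein fascin, fell from 26.6 ± 3.48 to 0.434 ± 0.240 CPM (log2 fold change -4.27) and was already at 1.21 ± 0.159 CPM in the MITF KO, where Ccdc8 stood at 0.225 ± 0.145 CPM against 18.9 ± 2.27 CPM in the parental line and 0.226 ± 0.0870 CPM in the DKO. Hoxa11, a positional homeobox gene, read 18.1, 18.01 and 18.3 CPM in parental and 0.0392, 0 and 0 CPM in DKO libraries. Tuba4a, an alpha-tubulin, was at 14.1, 12.4 and 11.1 CPM in the parental libraries and 0 in each DKO library, at least 104-fold lower. Ssbp4, Gpm6a, Mgll (the lipase that cleaves monoacylglycerols) and Hpgds (prostaglandin D synthase) complete the 12, with log2 fold changes of -4.66, -4.01, -3.99 and -3.67. The 3′ ends of Acta2, Cfap100, Car14, Tuba4a and Ifi27l2a overlap a gene on the other strand (Stambpl1, Zxdc, Aph1a, Stk16 and Ifi27), and the counting is not stated to use strand, so reads from the partners cannot be told apart. Gal3st2 shares 35.6% of the 50-base stretches at its 3′ end with Gal3st2b.

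The pigment programme was lower. Of 16 genes of melanin synthesis and the melanosome, 9 were downregulated and none upregulated, with a median log2 fold change of -1.04 against 0.01 over all genes. Their summed level was 32639 to 34062 CPM in the parental libraries and 20425 to 23311 CPM in the DKO libraries. Tyr encodes tyrosinase, which starts melanin synthesis, and read 127, 133 and 134 CPM in parental and 12.47, 11.8 and 14.1 CPM in DKO libraries (log2 fold change -3.27 ± 0.15 SE, adjusted p = 1.4e-14). Tspan10, a tetraspanin of pigment cells, read 275, 271 and 266 CPM in parental and 27.96, 21.4 and 25.6 CPM in DKO libraries (log2 fold change -3.39 ± 0.11 SE, adjusted p = 5.2e-17). Slc45a2, a melanosomal transporter, read 433, 417 and 378 CPM in parental and 54.6, 62.8 and 64.8 CPM in DKO libraries (log2 fold change -2.73 ± 0.09 SE, adjusted p = 3.8e-17). For these 3 genes the highest DKO library was far below the lowest parental one. Pmel, which forms the fibrils on which melanin is laid down, fell from 3771 ± 278 to 940.4 ± 116 CPM (log2 fold change -2.01), Mlana, a melanosome protein, from 799 ± 47.3 to 248 ± 19.6 CPM (log2 fold change -1.68), and Gpr143, a melanosomal receptor, from 18.3 ± 0.802 to 4.84 ± 0.557 CPM (log2 fold change -1.73). Slc7a11, the cystine transporter, fell from 14.3 ± 2.39 to 2.38 ± 0.641 CPM (log2 fold change -2.18). The pigment enzyme Tyrp1 was downregulated by just over 2-fold, with 2698, 2506 and 2509 CPM in parental and 1134, 1359 and 1357 CPM in DKO libraries (log2 fold change -1.01 ± 0.10 SE, adjusted p = 1.2e-08), and the channel gene Trpm1 similarly (log2 fold change -1.08 ± 0.20 SE, adjusted p = 6.4e-05). Both lie at the threshold: the log2 fold change of Tyrp1 was -0.92 without DKO replicate 1, -0.97 without parental replicate 1, -0.65 with quantile normalization and -0.69 after the median change of the genes around it was subtracted (neighbour subtraction), and that of Trpm1 was -0.94 without DKO replicate 2, -0.96 without parental replicate 3 and -0.84 with a pseudocount of 5.

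Not every pigment gene fell. Dct, the dopachrome tautomerase, read 18263, 17963 and 17027 CPM in parental and 13265, 15004 and 15385 CPM in DKO libraries (log2 fold change -0.29 ± 0.11 SE, adjusted p = 0.033), a small decrease next to that of Tyr. Slc24a5 fell short of 2-fold (-0.99), as did the melanosomal glycoprotein gene Gpnmb (-0.83). Oca2 (-0.08), Cd63 (0.26), the copper transporter gene Atp7a (0.74) and Tpcn2 (0.68) were not called. Among the regulators of the lineage, 1 of 5 was downregulated and none upregulated: Mc1r, the receptor for alpha-melanocyte-stimulating hormone, read 299.3, 296 and 306 CPM in parental and 83.6, 91.1 and 92.2 CPM in DKO libraries (log2 fold change -1.75 ± 0.09 SE, adjusted p = 1.2e-13). Sox10 averaged 731 ± 28.1 CPM in the parental line and 1053 ± 67.8 CPM in the DKO (0.52), Pax3 239 ± 4.91 and 224 ± 6.34 CPM, and Tfap2a 69.5 ± 3.35 and 57.9 ± 6.19 CPM, none of them called. Kit was barely detected in the parental line (0.777, 0.273 and 0.944 CPM) and at 0 in each DKO library. Of 22 genes of melanosome biogenesis and transport, 4 were downregulated and 1 upregulated (median -0.36). Rab27a, which links melanosomes to their motor, fell from 63.6 ± 2.07 to 15.8 ± 2.15 CPM (log2 fold change -1.95), Sytl2, a Rab27 effector, from 39.8 ± 1.43 to 13.3 ± 1.91 CPM (log2 fold change -1.52), and Lyst, the Chediak-Higashi gene, from 15.5 ± 0.436 to 4.99 ± 1.10 CPM (log2 fold change -1.48), whereas Rab7b rose from 1.75 ± 1.01 to 22.1 ± 4.61 CPM (log2 fold change 3.12). Rab38 read 413 ± 120.1 and 315 ± 114 CPM. Bloc1s2 was the fourth downregulated member (-1.19), and after neighbour subtraction its change was -0.37, with a pseudocount of 5 -0.90. The 3′ end of Pmel overlaps Dgka and that of Slc24a5 overlaps Myef2 on the other strand, while Bloc1s2 and Cd63 share 17.4% and 17.2% of their 3′-end stretches with other loci.

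**Figure D2:**
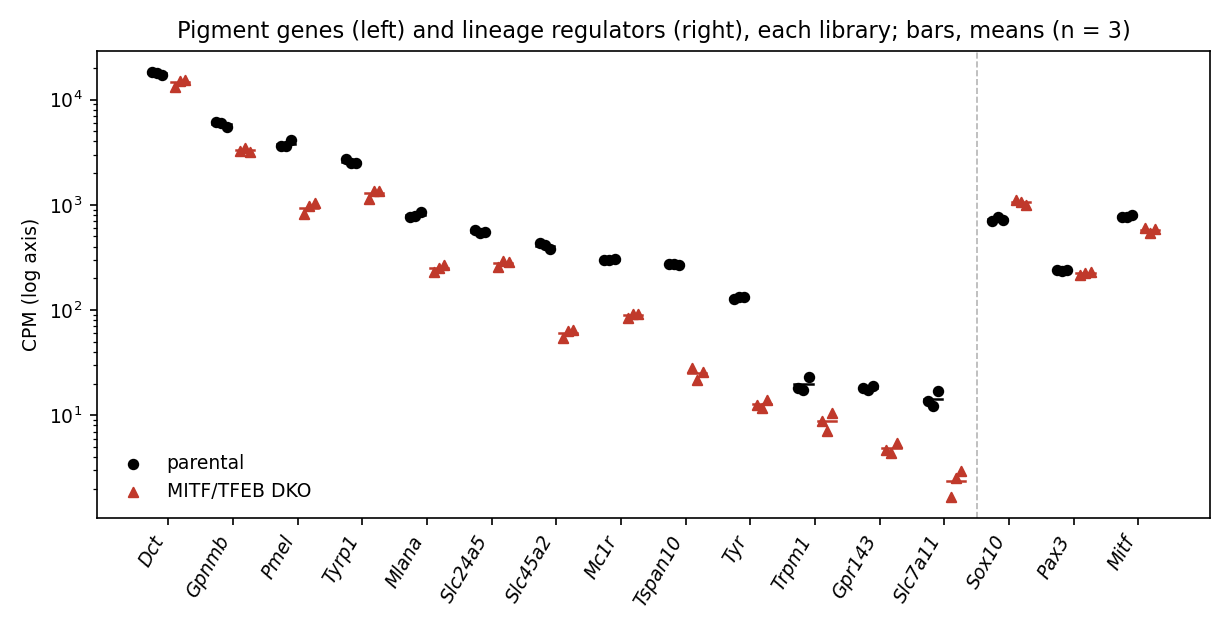
Level of 13 pigment-related genes (left of the dashed line) and of Sox10, Pax3 and Mitf (right) in CPM on a log axis, with a black circle for each parental library, a red triangle for each MITF/TFEB DKO library and a bar for the mean of 3. Tyr, Tspan10 and Slc45a2 show the widest gaps, while the triangles of Dct and Pax3 lie close to the circles and those of Sox10 above them.

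Pigment genes had medians near 0 in the single KOs. The median change of the 16 genes against parental cells came to 0.05 for the MITF KO, -0.03 for the TFEB KO, -1.04 for the DKO and -1.81 for the TKO, comparisons that share the parental libraries. The MITF KO median hides a higher summed level, 46875.5 to 49279.5 CPM against 32639 to 34062 CPM in parental cells, most of it Dct. The study reports Dct, Tyrp1 and Trpm1 as upregulated in the MITF KO, so any fall of these against it starts from a raised level. Tyr, at 131 ± 4.13 CPM in parental cells, had means of 111 ± 8.503 (MITF KO) and 106 ± 20.9 CPM (TFEB KO). Against the MITF KO, in which 479 genes (3.99%) were lower and 830 (6.91%) higher in the DKO, 9 of the 16 were lower and none higher, among them Tyr (log2 fold change -3.02 ± 0.15 SE, adjusted p = 3.7e-14) and Tspan10 (log2 fold change -2.99 ± 0.11 SE, adjusted p = 2.8e-16). Non-additivity was taken as the DKO change minus the sum of the changes in the MITF KO and the TFEB KO. Over all genes it was above 1 (log2) for 908 (7.56%) and below -1 for 573 (4.77%), and 11 of the 16 pigment genes were below and none above. For Tyr it was -2.705 ± 0.21 SE (adjusted p = 3.6e-10), and for Dct, whose mean in the MITF KO was 29022 ± 453 CPM, -1.08 ± 0.16. With quantile normalization the numbers over all genes were 758 above and 758 below, so the excess of genes above the sum depends on the scaling. Against the TKO, which is another cell line and also lacks Tfe3, 238 genes (1.98%) were higher and 38 (0.316%) lower in the DKO. Tspan10 (log2 fold change 1.14 ± 0.11 SE, adjusted p = 5.7e-08) and Trpm1 (log2 fold change 1.99 ± 0.20 SE, adjusted p = 6.0e-08) were the 2 pigment genes that were higher.

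Promoter sequences were searched because the family binds E-boxes. RefSeq promoters (mouse build GRCm38.p6, 250 bases before to 50 after the start) matched 9647 of the 12010 genes, and 2 motifs were counted on either strand: CACGTG, which reads the same on both, and the related E-box CATGTG, which on the other strand reads CACATG. The former stood in 1155 promoters (11.97%) and the latter in 967 (10.0%). Among upregulated genes with a promoter, 96 of 834 (11.5%) held CACGTG and 89 (10.7%) CATGTG. Among downregulated genes, 54 of 480 (11.2%) and 55 (11.5%) did, so both shares lay near those of all genes. Of the 12 pigment genes with a promoter, 8 (66.7%) held CATGTG: Tyr, Tyrp1, Dct, Oca2, Slc24a5, Trpm1, Tspan10 and Slc7a11. The windows of 4 of them and of Mc1r are shown with the motif in capitals, since they include the strongest decreases of the group and a gene short of 2-fold (Slc24a5). A match is a description of these letters, not evidence of binding.

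Tyr, chr7:87493513-87493563, minus strand: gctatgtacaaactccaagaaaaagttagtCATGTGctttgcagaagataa
Tyrp1, chr4:80834137-80834202, plus strand: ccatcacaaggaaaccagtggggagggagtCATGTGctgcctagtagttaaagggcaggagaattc
Tspan10, chr11:120442580-120442630, plus strand: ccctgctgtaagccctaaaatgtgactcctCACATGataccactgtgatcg
Slc24a5, chr2:125068084-125068126, plus strand: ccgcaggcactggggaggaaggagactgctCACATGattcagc
Mc1r, chr8:123406990-123407066, plus strand: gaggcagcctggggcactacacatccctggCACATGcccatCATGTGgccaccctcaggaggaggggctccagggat

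In Tyr the motif begins 21 bases before the annotated start and in Tspan10 likewise 21 bases, in Slc24a5 13 bases and in Tyrp1 46 bases before it. Mc1r holds 2 copies. Of the 8 genes with CATGTG, 5 were downregulated (Tyr, Tyrp1, Trpm1, Tspan10 and Slc7a11) and 3 were not called (Oca2, Dct and Slc24a5). Of the 4 members without it (Gpnmb, Cd63, Atp7a and Tpcn2) none was called, and Atp7a held CACGTG, as did Trpm1. The split covers only the 12 of 16 members with a promoter. Pmel, Mlana, Gpr143 and Slc45a2 had none to search and were all downregulated, so no link of motif and fall is drawn.

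Reported MITF targets that favour proliferation and metabolism were mostly lower: 8 of 14 were downregulated and 1 upregulated (median -1.14). Met, the receptor for hepatocyte growth factor, read 212, 206 and 191 CPM in parental and 36.7, 37.6 and 36.7 CPM in DKO libraries (log2 fold change -2.43 ± 0.14 SE, adjusted p = 9.9e-13). Its MITF KO libraries, at 71.2 ± 7.52 CPM, lay between. The cyclin-dependent kinase gene Cdk2 read 169.6, 169 and 221 CPM in parental and 61.2, 84.0 and 97.0 CPM in DKO libraries (log2 fold change -1.21 ± 0.19 SE, adjusted p = 1.2e-05). Scd1, the desaturase that makes oleate, fell from 24.4 ± 0.515 to 5.57 ± 0.859 CPM (log2 fold change -1.96), Ccnd1, cyclin D1, from 429 ± 28.1 to 131 ± 1.56 CPM (log2 fold change -1.70), the hexokinase gene Hk2 from 257 ± 9.32 to 87.8 ± 1.28 CPM (log2 fold change -1.54), and Ppargc1a, the coactivator of mitochondrial biogenesis, from 143 ± 13.3 to 55.6 ± 8.71 CPM (log2 fold change -1.35). The parental and DKO libraries did not overlap for any of these genes, as for every downregulated gene. The Wnt feedback gene Axin2 (-1.66) and Nampt, which makes NAD (-1.07), were also called, but Axin2 was at -0.98 with a pseudocount of 5 and Nampt at -0.55 after neighbour subtraction. Bcl2, the survival gene, went the other way and was upregulated, with 65.9, 60.1 and 60.9 CPM in parental and 138, 133 and 129.7 CPM in DKO libraries (log2 fold change 1.09 ± 0.08 SE, adjusted p = 5.8e-11), at 0.79 after neighbour subtraction. Dicer1 (-0.96), Tbx2 (-0.80), Hif1a (-0.54), Lig1 (-0.53) and Slc27a1 (-0.29) were lower without reaching 2-fold. Against the MITF KO, 4 of the 14 were lower and 1 higher in the DKO. The 3′ ends of Ccnd1, Cdk2, Hif1a and Tbx2 overlap a gene on the other strand.

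Genes of cell division moved down by small steps. Of 47 genes of DNA replication, 7 were downregulated and none upregulated, with a median of -0.53, and 35 were lower and 2 higher at an adjusted p under 0.05. The replication factor gene Mcm10 read 79.5, 82.9 and 75.2 CPM in parental and 19.6, 19.8 and 22.3 CPM in DKO libraries (log2 fold change -1.90 ± 0.11 SE, adjusted p = 8.9e-13). Chaf1a, a chromatin assembly factor, fell from 214 ± 16.2 to 81.0 ± 12.9 CPM (log2 fold change -1.40), Rrm2, the ribonucleotide reductase subunit, from 254 ± 11.1 to 97.7 ± 7.84 CPM (log2 fold change -1.37), and the licensing factor gene Cdt1 from 168 ± 7.26 to 66.1 ± 2.73 CPM (log2 fold change -1.33). Mcm2 (-0.55) and Mcm3 (-0.30) changed by less than 2-fold. Of 43 genes of mitosis, 4 were downregulated and none upregulated (median -0.40), namely Cdc25b (-1.30), a phosphatase that activates CDK1, the kinesins Kif20b (-1.26) and Kif11 (-1.22), and Birc5, survivin (-1.01). Cdk1 (-0.08) and Ccna2 (-0.25) stayed near their parental level. Birc5 rests on single libraries: it was -0.99 without DKO replicate 3 and -0.96 without parental replicate 2. After neighbour subtraction Cdt1 (-0.82), Kif11 (-0.50), Kif20b (-0.56) and Birc5 (-0.82) were no longer called, and with quantile normalization Birc5 was at -0.85.

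Cyclins and CDK inhibitors moved both ways, and most p53 targets were higher. Of 14 G1 cyclins and CDK inhibitors, 1 was upregulated and 2 downregulated (median 0.24). The upregulated member was Cdkn1c, the inhibitor p57, with 3.84, 2.59 and 3.15 CPM in parental and 13.5, 20.9 and 15.6 CPM in DKO libraries (log2 fold change 2.07 ± 0.21 SE, adjusted p = 1.9e-08), and the downregulated ones were Ccnd1 and Cdk2. Ccnd2 averaged 1923 ± 32.8 CPM in the parental line and 2335 ± 225 CPM in the DKO, and Cdkn1a, p21, 793 ± 27.4 and 1225 ± 175 CPM, neither called. Of 17 p53 targets, 4 were upregulated and none downregulated (median 0.71), and 13 were higher and none lower at an adjusted p under 0.05. Btg2, an antiproliferative gene, rose from 2.48 ± 0.244 to 12.3 ± 1.34 CPM (log2 fold change 1.93), Bbc3, which encodes the cell death protein PUMA, from 14.04 ± 0.296 to 41.0 ± 3.15 CPM (log2 fold change 1.48), Trp53inp1 from 18.4 ± 1.92 to 46.2 ± 3.91 CPM (log2 fold change 1.29), and Phlda3, an AKT inhibitor, from 82.3 ± 0.627 to 179.7 ± 16.4 CPM (log2 fold change 1.11). Mdm2, the p53 ligase, was higher by less than 2-fold (0.81). Phlda3 was at 0.51 after neighbour subtraction. Of 13 feedback and target genes of MAPK signalling, 6 were downregulated and none upregulated (median -0.60), with 11 lower and 2, Egr1 (0.97) and Spry1 (0.73), higher at an adjusted p under 0.05. Dusp4, a phosphatase that switches off ERK, read 33.5, 33.1 and 36.4 CPM in parental and 3.33, 3.48 and 3.11 CPM in DKO libraries (log2 fold change -3.03 ± 0.12 SE, adjusted p = 1.4e-15). The ETS factor genes Etv4, Etv1 and Etv5 fell from 8.38 ± 1.53 to 0.248 ± 0.304 CPM (log2 fold change -2.92), from 12.2 ± 0.504 to 1.55 ± 0.373 CPM (log2 fold change -2.38) and from 15.9 ± 0.612 to 3.15 ± 0.846 CPM (log2 fold change -2.05), and Spry2 from 21.2 ± 1.94 to 7.22 ± 1.07 CPM (log2 fold change -1.44). Etv5 was higher in the DKO than in the MITF KO, where it averaged 0.921 ± 0.520 CPM (log2 fold change 1.13 ± 0.20 SE, adjusted p = 6.4e-05), while Etv4 was at a few reads in both.

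Most ribosomal protein genes were lower by less than 2-fold. Of 75 genes for cytosolic ribosomal proteins, 11 were downregulated and none upregulated, 54 were lower and none higher at an adjusted p under 0.05, and the median was -0.51, or -0.32 with quantile normalization. Their summed level was 92732 to 101310.0 CPM in the parental libraries and 61185 to 67714 CPM in the DKO libraries. Rps29 (-1.27), Rps7 (-1.23), Rpl37 (-1.14) and Rpl23 (-1.12) had the largest decreases, whereas Rps2 (-0.29) and Rps3 (-0.43) did not reach 2-fold. After neighbour subtraction none of the 11 remained past 2-fold, and the 4 with the largest decreases were at -0.73, -0.82, -0.93 and -0.94, and Rpl23 was at -0.99 without DKO replicate 1. These genes have many near-identical pseudogenes, and Rps2, Rpl23 and Rps29 share 21.6%, 19.3% and 17.7% of their 3′-end stretches with other loci, so their levels are uncertain.

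**Figure D3:**
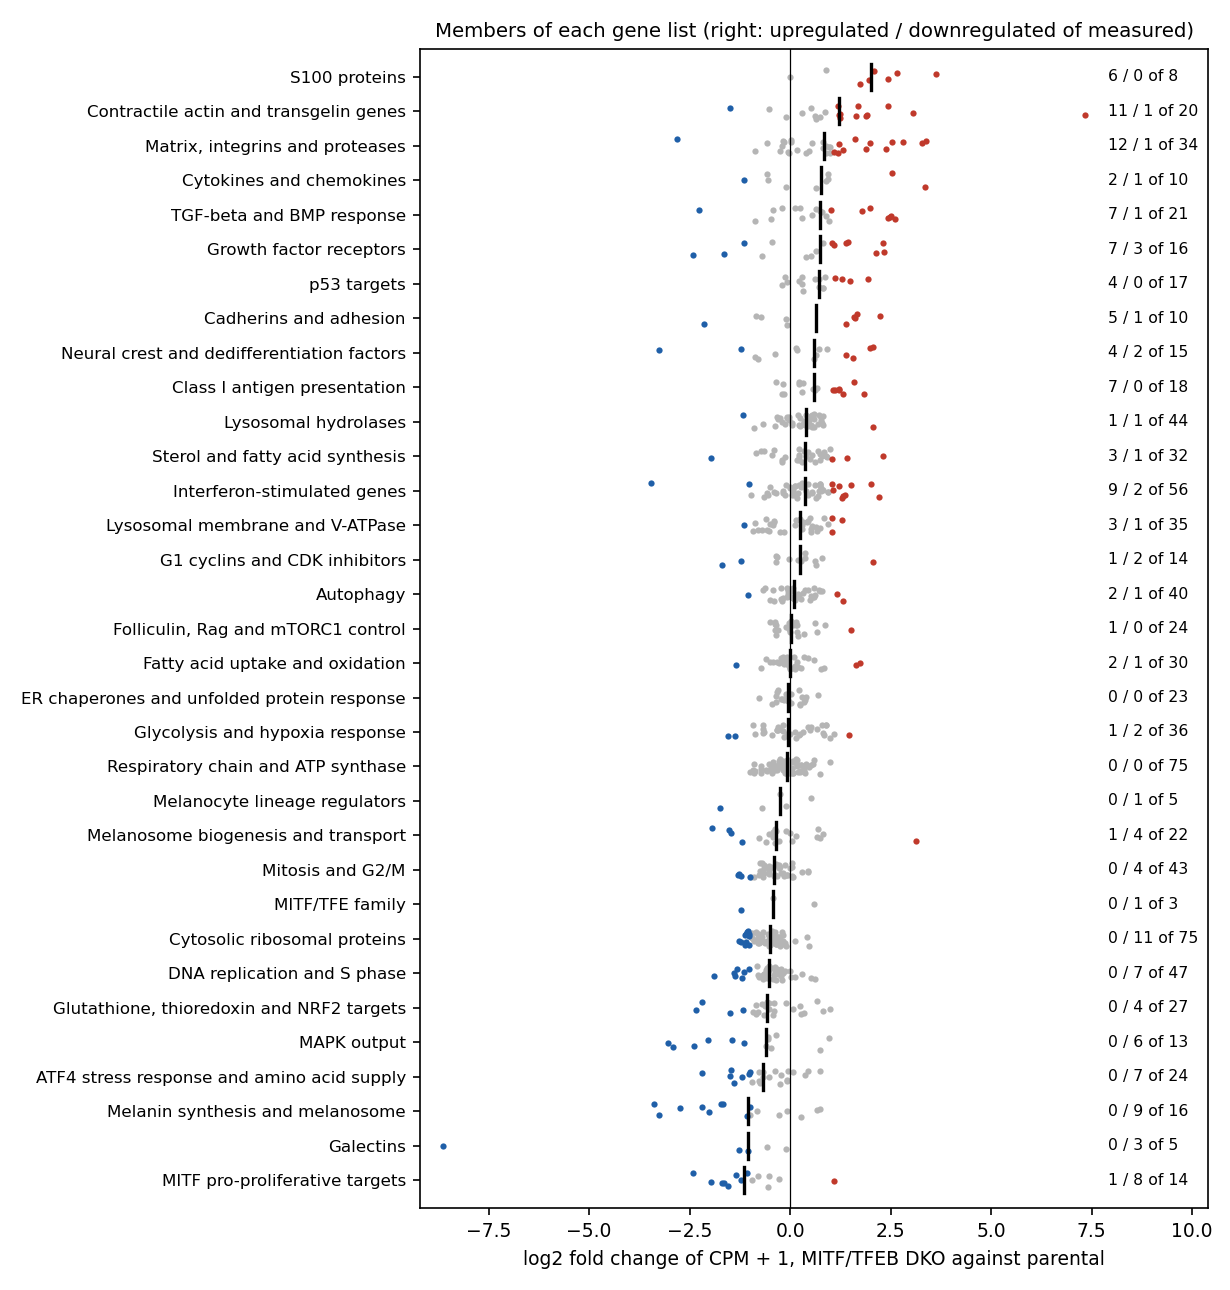
Log2 fold change of every measured member of the 33 gene lists, MITF/TFEB DKO against parental, with a point for each gene, red where upregulated and blue where downregulated, a bar at the list's median and the counts at the right. S100, contractile, matrix and receptor genes lie mostly above 0, pigment, MAPK and galectin genes below it, and respiratory chain and glycolysis genes close to it. Lysosomal hydrolase genes are rarely called but lie mostly above 0, with a median of 0.39.

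Lysosomal genes, the best known targets of TFEB and TFE3, were rarely called with TFE3 alone unedited. Of 44 lysosomal hydrolase genes 1 was upregulated and 1 downregulated (2.27% each), against 8.78% and 4.94% of all genes. The median was 0.39, with 23 higher and 5 lower at an adjusted p under 0.05. The upregulated one was the cathepsin gene Ctsf, with 0.690, 0.909 and 0.764 CPM in parental and 5.92, 7.51 and 6.09 CPM in DKO libraries (log2 fold change 2.07 ± 0.14 SE, adjusted p = 1.3e-11), and the downregulated one was Gla, alpha-galactosidase, with 14.8, 13.6 and 18.7 CPM in parental and 5.10, 7.47 and 6.49 CPM in DKO libraries (log2 fold change -1.18 ± 0.16 SE, adjusted p = 1.7e-06). With a pseudocount of 5 these were at 0.99 and -0.86. Ctsa read 82.9 ± 6.27 and 98.9 ± 5.04 CPM in the parental line and the DKO, and Ctsb 226 ± 6.53 and 222 ± 16.3 CPM. Ctsa was higher in the DKO than in the TKO, where it averaged 46.1 ± 1.48 CPM (log2 fold change 1.08 ± 0.08 SE, adjusted p = 4.6e-10). It was the only 1 of the 44 hydrolases called in that comparison, in which 1.98% of all genes were higher. Of 35 lysosomal membrane and proton pump genes, 3 (8.57%) were upregulated and 1 (2.86%) downregulated, near or below the shares of all genes. Their median, 0.24, was 0 after neighbour subtraction, and 16 were higher and 12 lower at an adjusted p under 0.05. Sidt2, an RNA transporter of the lysosome, read 20.49, 17.96 and 18.8 CPM in parental and 51.2, 47.9 and 46.4 CPM in DKO libraries (log2 fold change 1.30 ± 0.11 SE, adjusted p = 1.1e-09). The pump subunit gene Atp6v0a2 (1.05) and the membrane glycoprotein gene Lamp2 (1.03) were just past 2-fold: Atp6v0a2 was at 0.99 without parental replicate 3 and Lamp2 at 0.62 after neighbour subtraction. Atp6v1d, another pump subunit, fell from 446 ± 25.2 to 201 ± 19.1 CPM (log2 fold change -1.147), and was at -0.70 after neighbour subtraction. Lamp1 was higher by less than 2-fold (log2 fold change 0.85 ± 0.08 SE, adjusted p = 6.4e-09). The 3′ ends of Gla, Atp6v1d, Ctsb and Lamp1 overlap a gene on the other strand (Rpl36a, Pals1, Fdft1 and Grtp1), so their levels are uncertain, as are for the same reason those of Chaf1a, Uba7, Ddit3, Srebf1, Hmgcs1, Hspa5, Fabp7 and Kit.

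CACGTG was common in these promoters. It stood in 11 of 34 hydrolase promoters (32.4%) and 9 of 26 membrane and pump promoters (34.6%), and in 8 of 18 of melanosome biogenesis genes (44.4%), against 11.97% of all promoters. The longer palindrome TCACGTGA, which contains it, stood in 7 of the 26 (26.9%) and in 222 of all (2.30%). Windows of Lamp1, with 4 copies, and Ctsa, the hydrolase that differed between DKO and TKO, are shown with CACGTG in capitals (GRCm38.p6).

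Lamp1, chr8:13159070-13159160, plus strand: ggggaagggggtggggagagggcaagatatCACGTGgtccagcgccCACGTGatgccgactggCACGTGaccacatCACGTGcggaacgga
Ctsa, chr2:164833731-164833772, plus strand: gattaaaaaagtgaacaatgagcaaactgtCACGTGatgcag

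In Lamp1 the last copy begins 15 bases before the start, and in Ctsa the only copy begins 12 bases before it. Neither gene was called against the parental line. Ctsa was 1 of 11 hydrolases with CACGTG, and the others were not called against the TKO. Of 40 autophagy genes, 2 were upregulated and 1 downregulated (median 0.09): the kinase gene Ulk2 rose from 15.8 ± 1.86 to 40.5 ± 2.30 CPM (log2 fold change 1.31) and the receptor gene Calcoco1 from 16.2 ± 1.92 to 37.7 ± 5.11 CPM (log2 fold change 1.17), while Optn, a receptor for damaged mitochondria, fell from 23.7 ± 0.419 to 10.9 ± 1.46 CPM (log2 fold change -1.06) and was at -0.96 without DKO replicate 2, -0.85 with a pseudocount of 5 and -0.85 after neighbour subtraction. Ulk1 was not called (log2 fold change 0.07 ± 0.11 SE, adjusted p = 0.62). The called shares of the autophagy list, 5% up and 2.5% down, lay below those of all genes (8.78% and 4.94%). Of 24 genes of folliculin, the Rag GTPases and mTORC1 control, 1 was upregulated and none downregulated. It was Ddit4, an inhibitor of mTORC1, with 63.0, 57.4 and 46.8 CPM in parental and 144, 176 and 165 CPM in DKO libraries (log2 fold change 1.52 ± 0.16 SE, adjusted p = 3.4e-08), and it stood higher still in the MITF KO, at 244 ± 12.497 CPM. Flcn (0.19) and Fnip1 (0.33) were within 2-fold. The list's median was 0.02 and changed sign under other scalings, so no direction is given.

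Many contractile and matrix genes were upregulated, and adhesion genes moved both ways. Of 20 contractile actin and transgelin genes, 11 were upregulated and 1 downregulated, with a median of 1.21, or 1.24 with genes at 0 set to 3 reads. Cnn2, a calponin, read 56.2, 48.5 and 61.2 CPM in parental and 260.2, 319 and 331 CPM in DKO libraries (log2 fold change 2.43 ± 0.16 SE, adjusted p = 1.1e-11). Flna, the actin crosslinker filamin A, read 169, 154 and 153 CPM in parental and 632, 627 and 553 CPM in DKO libraries (log2 fold change 1.92 ± 0.14 SE, adjusted p = 1.1e-10). Cald1, caldesmon, rose from 603 ± 42.0 to 2231 ± 201 CPM (log2 fold change 1.88) and Lmod1, leiomodin, from 6.05 ± 1.13 to 57.0 ± 4.77 CPM (log2 fold change 3.05). All 3 DKO libraries were above the parental ones for each of these, as for nearly every upregulated gene. Tagln2 was at 0 in each parental library and at 2.43, 1.595 and 0.358 CPM in the DKO, at least 10.9-fold higher. Its call was lost without DKO replicate 1 (0.91), with a pseudocount of 5 (0.36) and after neighbour subtraction (0.56). Actg2 stayed near 0 (0.419 ± 0.178 and 1.09 ± 0.684 CPM). Beside these genes, the 2 smooth muscle markers of 5 in the table, Acta2 and Des, summed to 8.89 to 11.7 CPM in the parental libraries and 159 to 243 CPM in the DKO libraries, while Myh11, Cnn1 and Tagln were not in the table.

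Of 34 matrix, integrin and protease genes, 12 were upregulated and 1 downregulated (median 0.85). Fn1, fibronectin, read 17.1, 12.9 and 20.4 CPM in parental and 190.0, 182 and 170.2 CPM in DKO libraries (log2 fold change 3.37 ± 0.20 SE, adjusted p = 1.7e-12). Thbs1, thrombospondin, read 1.29, 0.682 and 0.225 CPM in parental and 17.4, 13.4 and 15.7 CPM in DKO libraries (log2 fold change 3.29 ± 0.25 SE, adjusted p = 1.3e-10). Both were higher in every DKO library, as nearly every upregulated gene was. The collagen genes Col6a3 and Col1a1 rose from 0.0871 ± 0.114 to 6.62 ± 0.433 CPM (log2 fold change 2.81) and from 0.399 ± 0.230 to 7.06 ± 0.785 CPM (log2 fold change 2.53), and the metalloprotease gene Mmp15 from 0.621 ± 0.164 to 7.43 ± 0.605 CPM (log2 fold change 2.38). Itgb3, the integrin subunit of the vitronectin receptor, was the one that fell, with 28.6, 32.6 and 28.5 CPM in parental and 3.76, 3.57 and 2.91 CPM in DKO libraries (log2 fold change -2.81 ± 0.20 SE, adjusted p = 5.1e-11). Fibroblast markers in the table were 2 of 7, Col1a1 and Col1a2, and summed to 9.73 to 12.45 CPM in the parental libraries and 34.4 to 45.3 CPM in the DKO libraries. Of 10 cadherin and adhesion genes, 5 were upregulated and 1 downregulated (median 0.65). L1cam, a neural adhesion molecule, rose from 12.1 ± 1.08 to 59.97 ± 3.63 CPM (log2 fold change 2.22), the melanoma adhesion gene Mcam from 63.4 ± 1.72 to 197 ± 10.2 CPM (log2 fold change 1.62), and Cdh2, N-cadherin, from 29.5 ± 0.253 to 78.2 ± 3.72 CPM (log2 fold change 1.38). Cdh1, E-cadherin, was near 0 in both (1.19 ± 0.261 and 1.03 ± 0.179 CPM). Vcam1 read 0, 0 and 0.0449 CPM in parental and 2.20, 1.39 and 3.42 CPM in DKO libraries, too few reads in the parental line for a fold change. Nectin2 fell from 181 ± 7.501 to 39.95 ± 2.82 CPM (log2 fold change -2.15), with 59.9 ± 0.882 CPM in the MITF KO.

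Of 21 genes of TGF-beta and BMP signalling, 7 were upregulated and 1 downregulated (median 0.75). The ligand gene Tgfb2 read 17.4, 17.6 and 13.9 CPM in parental and 101.3, 92.9 and 84.9 CPM in DKO libraries (log2 fold change 2.45 ± 0.12 SE, adjusted p = 1.4e-13), and Tgfb3 read 10.3, 11.5 and 10.97 CPM in parental and 57.6, 75.2 and 63.7 CPM in DKO libraries (log2 fold change 2.47 ± 0.14 SE, adjusted p = 1.4e-12). Tgfb1 was low in both lines (1.14 ± 0.211 and 2.32 ± 0.274 CPM), higher in the DKO but short of 2-fold on the log2(CPM + 1) scale (log2 fold change 0.64 ± 0.21 SE, adjusted p = 0.012). Of the response genes, the matricellular gene Ccn1 rose from 3.67 ± 1.17 to 25.8 ± 7.74 CPM (log2 fold change 2.51) and Id3 from 12.4 ± 6.19 to 51.4 ± 17.96 CPM (log2 fold change 1.995), while the related inhibitor Id2 fell, with 459.5, 502 and 452 CPM in parental and 98.4, 103 and 91.2 CPM in DKO libraries (log2 fold change -2.26 ± 0.12 SE, adjusted p = 1.7e-13). Id2 and Id3 were thus called in opposite directions. Of 16 growth factor receptor genes, 7 were upregulated and 3 downregulated (median 0.73). Erbb3, the neuregulin receptor, read 8.41, 8.504 and 9.93 CPM in parental and 42.0, 50.1 and 52.0 CPM in DKO libraries (log2 fold change 2.30 ± 0.20 SE, adjusted p = 1.5e-09). The ephrin receptor gene Ephb2 rose from 0.791 ± 0.279 to 7.96 ± 0.655 CPM (log2 fold change 2.33) and Fgfr3 from 1.85 ± 0.653 to 11.4 ± 1.79 CPM (log2 fold change 2.14), against the fall of Met. Axl was just past 2-fold (log2 fold change 1.05 ± 0.12 SE, adjusted p = 1.9e-07), and was at 0.96 without DKO replicate 1, 0.93 without parental replicate 3, 0.97 with a pseudocount of 5 and 0.81 after neighbour subtraction. Its relative Mertk was not called (0.53).

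Of 15 neural crest and dedifferentiation genes, 4 were upregulated and 2 downregulated (median 0.60). Ngfr, the low-affinity nerve growth factor receptor that marks neural crest, fell, with 14.2, 13.4 and 12.8 CPM in parental and 0.431, 1.09 and 0.159 CPM in DKO libraries (log2 fold change -3.25 ± 0.20 SE, adjusted p = 5.5e-12). Nes, the intermediate filament nestin, rose, with 71.1, 68.8 and 72.4 CPM in parental and 323, 288 and 288 CPM in DKO libraries (log2 fold change 2.07 ± 0.13 SE, adjusted p = 3.5e-12). The pair thus moved in opposite directions. Fosl2 (1.39), Id3 and Tfap2b (1.56, 0.75 with a pseudocount of 5) were the other upregulated members. Gfra1 was at 1.08, 1.0004 and 2.07 CPM in the parental libraries and 0 in each DKO library. Of 5 Schwann cell markers, 4 were in the table and summed to 78.5 to 86.5 CPM in the parental libraries and 1542 to 1734 CPM in the DKO libraries, most of it Mbp, myelin basic protein, a listed marker that averaged 69.2 CPM in the parental line and 1615 CPM in the DKO. All 8 S100 genes, which encode small calcium-binding proteins, were at or above their parental level, and 6 were upregulated (median 2.02). S100b read 316, 338 and 295 CPM in parental and 2049, 2104 and 1889.8 CPM in DKO libraries (log2 fold change 2.67 ± 0.12 SE, adjusted p = 2.6e-14), and averaged 1388 ± 84.7 CPM in the MITF KO. S100a4 rose from 37.8 ± 1.24 to 476 ± 34.1 CPM (log2 fold change 3.62), S100a6 from 32.8 ± 1.69 to 181 ± 13.8 CPM (log2 fold change 2.43) and S100a11 from 167 ± 11.6 to 709 ± 58.9 CPM (log2 fold change 2.08), whereas S100a1 was level (0.00). S100a4 overlaps Gm42674 on its own strand and shares 31.2% of its 3′-end stretches with it, and S100a11 shares 18.3% with other loci. Of the 5 keratinocyte markers 1, Krt14, was in the table, and it was at 0 CPM in each of the parental libraries and 6.51 to 8.98 CPM in the DKO libraries. The part of other cell types in these results was not tested.

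Of 5 galectin genes, 3 were downregulated and none upregulated (median -1.05). Besides Lgals3, Lgals9, an immune checkpoint ligand, fell from 163 ± 4.31 to 67.5 ± 1.07 CPM (log2 fold change -1.26), and it was at 3.43 ± 0.267 CPM in the MITF KO and 5.37 ± 0.291 CPM in the TKO. Lgals7 was called at a low level (2.47 ± 0.620 and 0.702 ± 0.496 CPM) and was at -0.87 without DKO replicate 2, -0.91 without parental replicate 2 and -0.39 with a pseudocount of 5. Lgals1 was not called (-0.12). Of 10 cytokine and chemokine genes, 2 were upregulated and 1 downregulated (median 0.77). Il18, a cytokine released by inflammasomes, read 1.47, 2.59 and 3.37 CPM in parental and 35.0, 34.2 and 31.2 CPM in DKO libraries (log2 fold change 3.35 ± 0.17 SE, adjusted p = 1.1e-13). Il34, a ligand of the macrophage receptor CSF1R, rose from 0.254 ± 0.172 to 6.43 ± 1.90 CPM (log2 fold change 2.55). Spp1, osteopontin, was near 0, at 0.777, 1.55 and 1.71 CPM in the parental and 0.0784, 0 and 0.0398 CPM in the DKO libraries.

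In metabolism, the amino acid stress response stood out. Of 24 genes of the ATF4 response and amino acid supply, 7 were downregulated and none upregulated (median -0.68). Atf4 itself read 1050.2, 1156 and 1010.2 CPM in parental and 409, 402 and 351 CPM in DKO libraries (log2 fold change -1.47 ± 0.12 SE, adjusted p = 2.9e-10). Its targets Trib3, a pseudokinase, Chac1, which degrades glutathione, and Mthfd2, of mitochondrial folate metabolism, fell from 66.1 ± 7.47 to 22.6 ± 2.58 CPM (log2 fold change -1.51), from 52.2 ± 2.36 to 19.4 ± 2.32 CPM (log2 fold change -1.39) and from 599 ± 23.3 to 261 ± 11.8 CPM (log2 fold change -1.19). Ddit3, CHOP, was not called (-0.25). Against the MITF KO, where Atf4 averaged 1456 ± 144 CPM and Trib3 143 ± 14.3 CPM, 13 of the 24 were lower in the DKO and none higher, and 14 lay below the sum of the single KOs. Of 27 glutathione, thioredoxin and NRF2 target genes, 4 were downregulated and none upregulated (median -0.57). Fth1, the ferritin heavy chain that stores iron, read 2216, 2358 and 2499.6 CPM in parental and 465, 475 and 444 CPM in DKO libraries (log2 fold change -2.35 ± 0.10 SE, adjusted p = 2.2e-15). The glutathione transferase genes Gstm1 (-1.17) and Gsta4 (-1.49, -0.48 with a pseudocount of 5) and Slc7a11 were the others, and Gstm1 shares 21.5% of its 3′-end stretches with relatives. Nfe2l2, the factor NRF2, and its inhibitor Keap1 were not called (-0.57 and 0.08).

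Of 32 genes of sterol and fatty acid synthesis, 3 were upregulated and 1, Scd1, downregulated (median 0.38), with 17 higher and 5 lower at an adjusted p under 0.05. Hsd17b7, a late step of cholesterol synthesis, read 12.04, 8.41 and 10.2 CPM in parental and 56.6, 50.1 and 57.1 CPM in DKO libraries (log2 fold change 2.32 ± 0.13 SE, adjusted p = 4.2e-13). Srebf1 was upregulated at a low level (1.42, 0.98 with a pseudocount of 5). Hmgcs1, an early enzyme of the sterol pathway, was higher by less than 2-fold (0.49). For respiration and sugar use there was little to see. None of 75 respiratory chain genes was called in either direction (lowest -0.996, highest 0.997, median -0.09), and of 36 glycolysis and hypoxia genes 1 was upregulated and 2 downregulated. The latter were Hk2 and Slc16a3, a lactate exporter, with 99.8, 100.3 and 95.9 CPM in parental and 39.6, 35.4 and 38.3 CPM in DKO libraries (log2 fold change -1.36 ± 0.14 SE, adjusted p = 2.9e-08), and the former Egln3 (1.48), at a low level. Slc2a1 (0.49) and Slc2a3 (0.24) were not called. None of 23 ER chaperone genes was called (Hspa5 -0.35, Hsp90b1 0.38). Of 30 genes of fatty acid uptake and oxidation, 2 were upregulated, Cpt1c (1.64) and Fabp7 (1.75, 0.94 with a pseudocount of 5), and 1, Ppargc1a, downregulated. The medians of these last 4 lists lay between -0.09 and -0.01 and changed sign under other scalings.

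Interferon-stimulated genes separated the DKO from the lines on either side of it. Against the parental line the change was modest: of 56 genes, 9 were upregulated and 2 downregulated (median 0.37). Their summed level was 10275 to 10622 CPM in the parental line and 12301 to 12653 CPM in the DKO. In the MITF KO it was 531 to 555 CPM and in the TKO 1203 to 1264 CPM. Against the MITF KO, 52 of 56 were higher in the DKO and none lower, and against the TKO 51 were higher and none lower. Against parental cells their median log2 fold change came to -4.27 for the MITF KO, -0.97 for the TFEB KO and -2.84 for the TKO. All 4 sets of values share the parental libraries. For 54 of the 56 the DKO lay above the sum of the single KOs, and for none below.

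Isg15, a ubiquitin-like modifier, read 528, 553 and 804 CPM in the parental line, 6.07, 5.10 and 4.74 CPM in the MITF KO, 527, 799 and 899.9 CPM in the DKO and 35.9, 39.7 and 37.3 CPM in the TKO. The DKO libraries lay near the parental ones (log2 fold change 0.23 ± 0.26 SE, adjusted p = 0.47) and far above the MITF KO (log2 fold change 6.85 ± 0.26 SE, adjusted p = 3.1e-16) and the TKO (log2 fold change 4.23 ± 0.26 SE, adjusted p = 9.5e-12). Ifi44 was at 0 in each MITF KO library, at 0.219, 0 and 0 CPM in the TKO and at 148, 169.6 and 167 CPM in the DKO. Usp18, which removes ISG15 from proteins, averaged 185 ± 1.34, 0.685 ± 0.265, 273 ± 17.8 and 2.20 ± 0.180 CPM in the same order of parental line, MITF KO, DKO and TKO. The 5 largest rises against the MITF KO were in Mndal (8.37) and Ifi203 (8.35), of the DNA-sensing p200 family, Iigp1 (7.58), an immunity-related GTPase, and the apolipoprotein genes Apol9b (8.17) and Apol9a (7.71). In each of these the MITF KO mean was under 1 CPM and the DKO mean at 201 CPM or more. Against the TKO the 5 largest were Ifi44 (7.25), Iigp1 (7.39), Mndal (7.01), Ifi27l2a (6.53) and Apol9b (6.84). The chemokine gene Ccl5 averaged 98.0 ± 4.03, 12.1 ± 1.07, 153 ± 3.54 and 56.5 ± 5.56 CPM in the same order. Apol9a and Apol9b share 32.8% and 39.9% of their 3′-end stretches with each other, and Mndal 9.34% with its neighbours.

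Some members passed the parental level. Gbp2, an antiviral GTPase, read 25.5, 24.7 and 28.1 CPM in parental and 104, 99.6 and 119 CPM in DKO libraries (log2 fold change 2.0004 ± 0.13 SE, adjusted p = 1.2e-11). Zbp1, a sensor of Z-form nucleic acids, read 4.79, 5.28 and 5.48 CPM in parental and 25.7, 28.3 and 28.8 CPM in DKO libraries (log2 fold change 2.21 ± 0.16 SE, adjusted p = 8.7e-11). Uba7, the activating enzyme for ISG15, rose from 37.6 ± 1.79 to 109 ± 7.35 CPM (log2 fold change 1.505). Every DKO library was above every parental library for these 3, as for nearly all upregulated genes. Oasl1 behaved differently: it was upregulated against the MITF KO but downregulated against the parental line, with 24.03, 26.0 and 26.3 CPM in parental and 1.37, 1.01 and 1.87 CPM in DKO libraries (log2 fold change -3.47 ± 0.16 SE, adjusted p = 3.0e-14). Of the 9 list members upregulated against the parental line, 4 remained past 2-fold after neighbour subtraction. Iigp1 and, outside the list, Ifi203 and Mndal were upregulated against the parental line by about 2-fold (1.07, 1.12 and 1.23) but not after neighbour subtraction (0.93, 0.48 and 0.58). Of 18 genes of class I antigen presentation, 7 were upregulated and none downregulated (median 0.59), 12 were higher than in the MITF KO, 13 higher than in the TKO and 16 above the sum of the single KOs, with none in the other direction. H2-D1, a class I heavy chain, read 145, 147 and 164 CPM in the parental line, 17.3, 17.0 and 24.5 CPM in the MITF KO, 443, 599 and 614 CPM in the DKO and 103, 113 and 126 CPM in the TKO. The DKO was above all 3 other lines (log2 fold change 1.84 ± 0.18 SE, adjusted p = 8.1e-09 against the parental line). Nlrc5, the class I transactivator, rose from 7.31 ± 0.674 to 24.1 ± 3.81 CPM (log2 fold change 1.59). B2m, the light chain, averaged 4181 ± 424 CPM in the parental line, 1055 ± 31.0 in the MITF KO and 3690.4 ± 328 in the DKO. H2-K1 was near 0 in every line (at most 1.12 ± 0.396 CPM). Tap2 (1.22) and H2-T22 (1.31) were called at low levels: Tap2 was at 0.92 without DKO replicate 3, and with a pseudocount of 5 they were at 0.50 and 0.44. H2-T22 shares 26.3% of its 3′-end stretches with H2-T10 and H2-D1 13.4% with other loci. Of 10 cytokine genes, 6 were higher than in the MITF KO and 3 higher than in the TKO, with none lower.

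**Figure D4:**
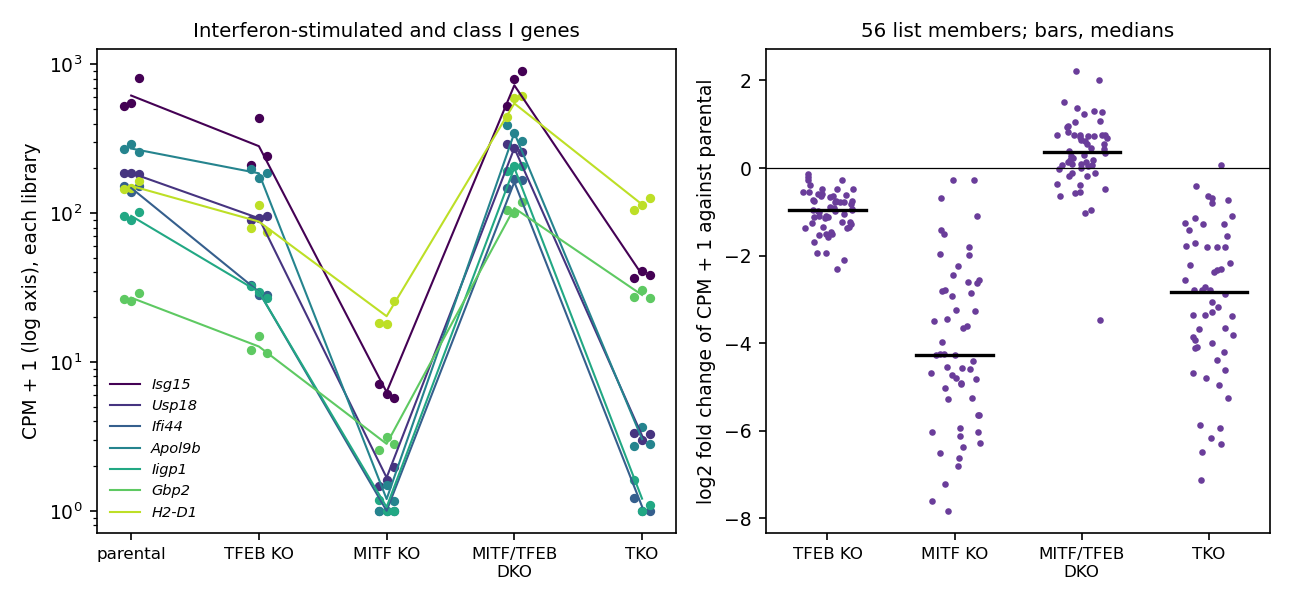
Left, level of 7 interferon-stimulated and class I genes in each library of 5 lines (CPM + 1 on a log axis), with lines joining the geometric means. Right, log2 fold change of the 56 list members against the parental line in 4 knockout lines, with bars at the medians. In the DKO the 7 genes lie at or above their parental level and in the MITF KO and TKO below or, for Gbp2 in the TKO, near it.

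The promoters of this group were searched for the core of the interferon-stimulated response element, a pair of TTTC blocks with any 2 bases between them (GAAA blocks when read from the other strand), a motif chosen after the values were seen. It stood in 23 of 43 promoters of the list (53.5%) and in 342 of all 9647 (3.55%), while CACGTG stood in none of the 43. CATGTG, the other E-box counted, stood in 9 of the 43 (20.9%), against 10.0% of all promoters. The windows of 3 genes named above are given to show how the match lies, with matches in capitals (GRCm38.p6).

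Isg15, chr4:156200845-156200926, minus strand: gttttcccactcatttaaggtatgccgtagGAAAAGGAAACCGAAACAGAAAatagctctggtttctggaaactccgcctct
Gbp2, chr3:142620574-142620643, plus strand: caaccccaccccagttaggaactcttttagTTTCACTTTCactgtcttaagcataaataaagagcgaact
Ifi203, chr1:173942493-173942557, minus strand: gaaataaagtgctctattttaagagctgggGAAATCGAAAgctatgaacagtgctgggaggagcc

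In Isg15, 3 overlapping matches lie 78 to 66 bases before the start, counted from the first base of each. Gbp2 has 1 match at 59 bases and Ifi203 1 at 35 bases before it.

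Beyond interferon genes, the largest falls against the MITF KO were in Lgals3 (log2 fold change -7.74 ± 0.11 SE, adjusted p = 1.6e-24), Car14 (-4.66), Fam111a (-4.61), Hpgds (-4.09) and Eps8 (-4.02). Of these, Lgals3, Car14, Fam111a and Eps8 also had 4 of the 5 largest shortfalls from the sum of the single KOs: Lgals3 was at -7.22 ± 0.15 SE and Tagln2, the other one, at -3.73 ± 0.32 SE. Tagln2 averaged 27.8 ± 5.12 CPM in the MITF KO and 1.46 ± 1.04 CPM in the DKO. Few genes were lower in the DKO than in the TKO. The 5 largest were the small noncoding Y RNA genes Rny3 (log2 fold change -3.67 ± 0.24 SE, adjusted p = 2.6e-11) and Rny1 (-2.89), the lipoprotein receptor gene Lrp8 (-1.51), the ubiquitin ligase gene Neurl1b (-2.29) and the oxidase gene Duox2 (-1.52). Rny3 read 18.9, 19.6 and 17.2 CPM in the DKO and 276, 239 and 228 CPM in the TKO, with no overlap, and shares 83.0% of its 3′-end stretches with Gm67032, so its level is uncertain. Duox2 averaged 0.562 ± 0.238 CPM in the DKO and 3.51 ± 0.838 CPM in the TKO.

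Changes were uneven along the genome. Among genes with a mean of at least 5 CPM, the median log2 fold change was 0.47 on chromosome 1, where 94 of 539 genes were upregulated and 11 downregulated, and -0.55 on chromosome 19, where 7 of 323 were upregulated and 48 downregulated. Chromosome 12 had a median of -0.42 and chromosome X of 0.29, and the median over all 9340 such genes was -0.03. In the MITF KO the medians of chromosomes 1, 12 and 19 were 0.15, -0.20 and -0.13. In the TKO they were 0.51, -0.39 and -0.58, near those of the DKO. All of these values share the parental libraries. Mndal and Ifi203 lie on chromosome 1 and Fth1, Fam111a and Acta2 on chromosome 19. Whether copy number differs between the lines was not tested. After neighbour subtraction, 990 genes were upregulated and 484 downregulated.

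**Figure D5:**
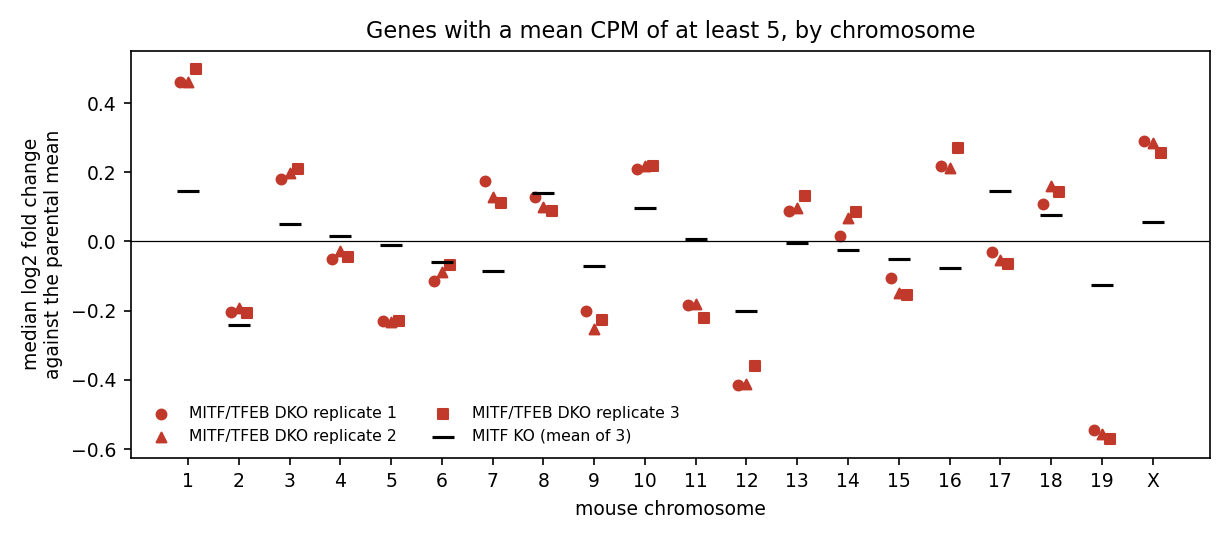
Median log2 fold change of the genes of each chromosome (vertical axis) against the parental line, for genes with a mean of at least 5 CPM, with a separate red symbol for each of the 3 MITF/TFEB DKO libraries and a black dash for the mean of the MITF KO. The DKO libraries lie close together on every chromosome, highest on chromosome 1 and lowest on chromosome 19.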

How the data were processed

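Poly(A) RNA of 24 B16F10-luc2 libraries (8 genotypes, 3 libraries each) was sequenced from 3′ ends. Per the submitters' processing notes, reads were trimmed with Trim Galore 0.6.5 and cutadapt 2.10, checked with FastQC 0.11.9, aligned to mm39 with STAR 2.7.8a and normalized with edgeR. The counting tool, annotation and low-count filter are not given in the sources used here. The authors deposited a signal per gene, CPM scaled by TMM factors. Every library's values step by a constant, so whole reads could be recovered (at least 99.99% of values within 0.1 read).

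The deposited values were tested as log2(CPM + 1) with limma 3.58.1 (R 4.3.3, trended variance, all 24 libraries, 16 residual degrees of freedom) and p-values adjusted by Benjamini-Hochberg over 12010 genes. The threshold, a fold change of 2 with unadjusted p under 0.05, follows the study. Alternatives were edgeR 4.0.16 on whole reads, other pseudocounts, filters and scalings, a replicate block, leaving out each library, and subtracting the median change of the 101 nearest genes on the chromosome (neighbour subtraction). On simulated data limma recovered 96% of 200 changed genes (DKO against parental) with 0% false calls among 11810. The planted changes were all past a fold change of 2, in genes with a mean above 1 CPM. All genes had the same noise level and no clone effect was added. The run checks the code and gives no error rate for the calls reported here. Members and gene lists were chosen with earlier results of these data known. Named genes were the 12 largest rises and falls with non-overlapping groups, the first 2 and up to 4 further called members of each list, all members of the MITF/TFE family, lineage, pigment and MITF target lists, and the 5 largest per direction in the other comparisons. Replicates differed beyond counting noise (chi-square per degree of freedom at least 6.86), so none was counted as a duplicate. Some genes that this rule names are not reported here. Gene positions follow GRCm39.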

Additional observations from a re-analysis of the deposited data

Results flagged for a closer look

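The difference between lines with and without the Tfeb edit was not the same on the MITF KO background as on the parental one, by a test of the difference itself (the interaction term in limma). Each line is 1 clone, so this cannot be told apart from differences between clones. In the DKO, 908 genes lay at least 2-fold above the sum of the changes in the single KOs and 573 at least 2-fold below. The 5 genes furthest above it were Ifi44, at 9.66 ± 0.15 SE (adjusted p = 7.1e-23), Mndal, at 9.50 ± 0.23 SE (adjusted p = 8.0e-20), Ifi203, at 9.49 ± 0.17 SE (adjusted p = 4.5e-22), Iigp1, at 9.27 ± 0.20 SE (adjusted p = 8.3e-21), and Apol9b, at 8.73 ± 0.22 SE (adjusted p = 2.4e-19), all on the log2 scale. In each of them all 3 DKO libraries exceeded all 3 MITF KO libraries. As they were chosen for the largest values, this separation is no further support.

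The 5 genes furthest below it were Lgals3, at -7.22 ± 0.15 SE (adjusted p = 5.7e-21), Car14, at -4.94 ± 0.17 SE (adjusted p = 7.3e-17), Fam111a, at -4.49 ± 0.19 SE (adjusted p = 4.0e-15), Eps8, at -4.01 ± 0.17 SE (adjusted p = 7.3e-15), and Tagln2, at -3.73 ± 0.32 SE (adjusted p = 3.6e-09). In each of these all 3 DKO libraries were below all 3 MITF KO libraries, again no further support for genes chosen by size. With quantile normalization 758 genes lay above and 758 below the sum. Groups of 3 libraries were too small to be examined for single outlying libraries.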

How the results depend on the processing

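The 1054 upregulated and 593 downregulated genes of the MITF/TFEB DKO became 549 and 334 with a pseudocount of 5, against the MITF KO they became 455 and 230, against the TKO 134 and 12, and for non-additivity 469 above and 294 below the sum. With genes of a mean of at least 5 CPM only, which leaves fewer genes to test, 656 were upregulated against the parental line, 531 against the MITF KO and 150 against the TKO, and 568 lay above the sum. With edgeR on whole reads, the study's test, 1400 were upregulated and 848 downregulated against the parental line. By the same test 737 fell below the MITF KO level, while 416 exceeded and 90 fell below the TKO level. A pseudocount of 0.25 gave 1324 upregulated and 792 downregulated against the parental line, and 66 lower than in the TKO. The cause of these shifts was not tested. Leaving out 1 library at a time gave 1040 to 1110 upregulated and 593 to 634 downregulated against the parental line, 787 to 961 and 466 to 541 against the MITF KO, 233 to 243 and 34 to 45 against the TKO, and 840 to 1111 above and 560 to 651 below the sum. With 1 library left out, the others of its line are assumed to vary like the rest.

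Quantile normalization moved the share of upregulated among called genes from 64.0% to 55.7% against the parental line and from 61.3% to 50% for non-additivity. Of 147 named genes called against the parental line, 39 lost the call under some alternative, 23 after neighbour subtraction and 21 with a pseudocount of 5, and no called gene reversed. After line means were subtracted, same-numbered DKO and parental libraries had correlations of 0.217, -0.0982 and 0.559. Over all lines the mean was 0.022 for libraries of the same number and -0.0126 for others. With 3 libraries a line these values cannot decide whether the numbers pair libraries. A fit with a replicate block gave 1054 up and 593 down against the parental line, 832 and 479 against the MITF KO, 238 and 38 against the TKO, and 913 above and 573 below the sum. Depth limits genes near 0: 49 genes had no reads in any parental library and 29 none in any DKO library.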
